A study of Mus musculus with 2 samples.

Results

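The cytoplasmic ribosomal protein genes were followed through single cell RNA-seq of hind limb muscle from dystrophic mice. They were chosen by symbol alone: every gene named Rpl or Rps with a number and an optional short suffix was taken, Rpsa, Rplp0, Rplp1 and Rplp2 were added, and annotated pseudogenes and the Rps6k kinases were left out. This rule found 86 of the 24984 gene symbols in the count matrices. Of the 86, 77 belong to the core set of cytoplasmic ribosomal proteins (46 of the large and 31 of the small subunit), 8 are paralogs of a core gene (Rpl3l, Rpl7l1, Rpl10l, Rpl22l1, Rpl36al, Rpl39l, Rps27l and Rps4l), and 1, Rpl32l, is in neither list. At least 1 UMI was counted for 85 members, and none for Rpl10l.

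The Ctrl library came from Pax7CreERT2/R26YFP; Yy1+/+; mdx mice and the dKO library from Pax7CreERT2/R26YFP; Yy1 f/f; mdx mice. Both groups therefore carried the dystrophin-deficient mdx background and the Cre driver, and both received tamoxifen per the study's methods, so that by design only the floxed Yy1 alleles set them apart. The labels themselves name only the library, Ctrl or dKO, and give no age. The driver acts in cells that express Pax7, the marker of muscle stem cells (MuSCs), whereas every mononuclear cell type of the muscle entered the libraries. Each genotype was sequenced as 1 library from pooled mice. There are thus no replicates, no test between genotypes was possible, and all intervals given here are exact 95% intervals that cover counting error only.

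Each ribosome holds a full set of ribosomal proteins, which are assembled with ribosomal RNA in the nucleolus into a small subunit that decodes mRNA and a large subunit that joins amino acids. Their mRNAs are among the most abundant in any growing cell, and their translation is controlled through a pyrimidine tract at the 5′ end, the TOP motif, downstream of the growth kinase mTORC1. A few ribosomal proteins have a paralog with a restricted pattern, such as Rpl3l in striated muscle and Rpl10l and Rpl39l in testis. Rps27l is a known target of p53, and Rpl22 is known to repress its own paralog Rpl22l1.

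Promoter sequence was taken from RefSeq (GRCm38.p6, the assembly that the mm10 build in the labels corresponds to) for 250 bases before and 50 bases after each gene start. An entry was found for 65 of the 86 members, on 17 chromosomes. Since Yy1 encodes a transcription factor that is known to bind letters of the form AAGATGGC, the windows were searched for these letters and their reverse complement GCCATCTT on both strands. A match was present in 6 of the 65 members (9.23%) and in 3.19% of the 27025 genes in the table. These matches are printed with the motif in capitals, because both of the members with the lowest ratios of dKO to Ctrl in MuSC-like cells are among them.
Rps27, chr3:90213704-90213733, minus strand: aagaccttccgAAGATGGCgaagcaacacg
Rpl22, chr4:152324271-152324300, plus strand: ctggaatatctGCCATCTTccagccacggg
Rpl7l1, chr17:46782617-46782646, minus strand: gaagcaccggaAAGATGGCggaggaagggt
Rpl13a, chr7:45128699-45128728, minus strand: ggcggctgccgAAGATGGCggaggggcagg
Rps15a, chr7:118116134-118116163, minus strand: actctctttctGCCATCTTccctcgccggt
Rpl35a, chr16:33056479-33056508, plus strand: ttcctctttccGCCATCTTggcgcctgtgg

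Relative to the annotated start, the first base of the match lay at -74 in Rps27, at -154 in Rpl22 and at -5 in Rps15a. Rpl22 has 2 annotated starts, and the window of only 1 of them holds the match. The letters lay downstream of the start at +22 in Rpl7l1 and at +29 in Rpl13a, and in Rpl35a at -24, +9 or +38 depending on which of its annotated starts is used. A match is a description of letters and was not measured as a binding site. The ETS letters CCGGAAGT, searched on both strands, were present in 12 members (18.5%) and in 4.31% of all genes.

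A start at C followed by at least 4 pyrimidines, the form of a TOP motif, was found in 14 of the 65 members (21.5%) and in 3.01% of all genes. A run of at least 8 pyrimidines that overlapped the bases from 10 before to 15 after the start was found in 31 members (47.7%) and in 17.6% of all genes. 4 such starts are printed to show the tract, with capitals from the annotated start to the end of the pyrimidine run. Rpl15 had the longest, with 13 pyrimidines, Rps6 is the subunit phosphorylated downstream of mTORC1, and Rps10 and Rpl35 show the same form in both subunits.
Rpl15, chr14:18270972-18271001, minus strand: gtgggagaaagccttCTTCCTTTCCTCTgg
Rpl35, chr2:39005117-39005146, minus strand: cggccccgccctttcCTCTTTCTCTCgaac
Rps6, chr4:86857353-86857382, minus strand: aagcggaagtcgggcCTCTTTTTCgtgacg
Rps10, chr17:27635230-27635259, minus strand: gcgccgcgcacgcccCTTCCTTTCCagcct

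The Ctrl library held 4527 barcodes with 45556596 UMIs and the dKO library 3483 barcodes with 33815155 UMIs. The libraries shared 7 barcodes. After removal of cells with fewer than 500 genes and of likely doublets, 4010 Ctrl cells (median 7880 UMIs) and 3079 dKO cells (median 7806 UMIs) remained. They fell into 23 clusters, which marker genes grouped into 14 classes, named "like" because no marker was measured in another way. The ribosomal protein genes themselves were kept out of the clustering, and 12 classes held at least 30 cells in each library and were compared. The largest were the FAP-like class (fibro-adipogenic progenitors, 1101 Ctrl and 1149 dKO cells) and the MO/MP-like class (monocytes and macrophages, 1417 and 1130). Yy1 was counted 369 times in Ctrl and 3 times in dKO MuSC-like cells (160 and 4.85 CPM, the UMIs of a gene per 1000000 UMIs of the class and library), and its log2 ratio of dKO to Ctrl lay between -0.56 and 0.33 in the other classes where it could be measured.

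The members together took 17.7% of all UMIs in Ctrl and 18% in dKO cells. Of the 100 genes with most UMIs, 58 were members. The core genes held 99.0% of the member UMIs, and the paralogs with Rpl32l held 0.964%. Since 10x libraries count 1 tag near the 3′ end of each molecule, CPM were compared between genes without a correction for length.

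Rplp1, an acidic protein of the ribosomal stalk that recruits elongation factors, had the most UMIs of all members, 217224 in Ctrl and 173707 in dKO, or 5325 and 5714 CPM. It was followed by Rpl13 (4450 and 4680 CPM), a large subunit protein, and by the small subunit proteins Rps12 (4368 and 4616 CPM), Rps24 (4143 and 4295 CPM) and Rps2 (3763 and 4089 CPM). Rpl41, the shortest ribosomal protein, Rpl23, Rps27a, which is made as a fusion with ubiquitin, and Rps20 were also among the 10 most abundant members, which together held 22.7% of the member UMIs. No single gene dominated the group.

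At the other end of the core set were Rpl30, with 342 UMIs in Ctrl and 159 in dKO, and Rpl26, with 423 and 149. Rpl30 and Rpl26 encode essential large subunit proteins. Rpl34 had 17408 and 8126 UMIs, Rps27 had 34129 in both libraries together and Rpl31 had 57971. The most abundant core gene thus had 780 times the UMIs of the least abundant. Many ribosomal protein genes have processed pseudogenes whose reads cannot be told apart from their own. At 95% identity over at least 80 of the last 300 transcript bases (GENCODE M21), 53 core members had at least 1 annotated copy elsewhere and 24 had none. Rpl7a had the most, 49. Rpl30 had 13 copies, Rpl34 had 8 and Rpl26 had 5, whereas Rps2, with 41 copies, was among the most abundant members. The median was 146291 UMIs for members with at least the median of 3 copies and 167877.5 for the others. Levels of members with copies are uncertain for this reason, and the part that copies play in any value was not tested.

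The share of UMIs that went to ribosomal protein genes differed far more between cell classes than between genotypes. The highest shares were in lymphocytes: 31.5% of UMIs in Ctrl T cell-like cells (95% interval 31.4 to 31.7%) and 31.1% in Ctrl B cell-like cells (31.0 to 31.3%). MuSC-like cells followed with 26.3%, dendritic cell-like cells with 24.5%, and cycling FAP-like, cycling MO/MP-like and FAP-like cells with 18.9%, 18.4% and 18.4%. MO/MP-like cells were at 16.1%, tenocyte-like cells at 14.3%, EC-like cells (endothelium) at 13.9% and smooth muscle/pericyte-like cells at 8.74%. Neutrophil-like cells had the lowest share, 5.64% (5.56 to 5.71%), a value that depended on the processing: it was 9.32% with the 20 most abundant other genes left out of the denominator, and the median cell had 3.16%.

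The dKO library gave nearly the same order. Its shares were 32.5% in B cell-like, 29.1% in T cell-like, 27.4% in MuSC-like, 21.7% in dendritic cell-like and 21.7% in cycling FAP-like cells, and 5.55% in neutrophil-like cells at the lower end. Across the 12 classes Spearman's rho between the libraries was 0.979, a description of classes that share a library and its depth. The classes with the highest shares were not the deepest: T cell-like and B cell-like cells had only 3217.5 and 2328 median UMIs in Ctrl, against 11742 in FAP-like cells. Within classes, however, the deeper cells had the higher share in 22 of the 24 pairs of class and library.

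**Figure D1:**
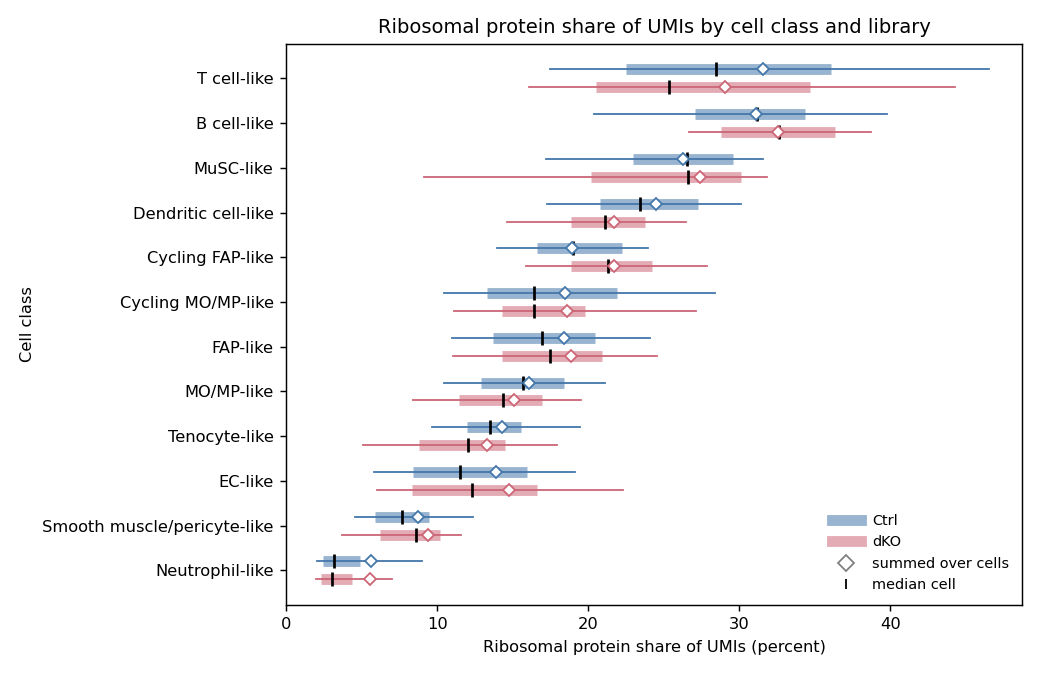
Share of UMIs in the 86 ribosomal protein genes (x axis, percent) for the 12 classes compared (y axis), Ctrl in blue and dKO in red. Thick bars run between the quartiles of single cells and thin lines from the 10th to the 90th percentile, ticks mark the median cell and diamonds the share summed over cells; by the summed share T cell-like and B cell-like cells sit highest and neutrophil-like cells lowest in both libraries, whereas by the median cell MuSC-like cells (26.6%) lie above T cell-like cells (25.3%) in dKO.

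Between genotypes, the summed share was higher in dKO in 7 classes and lower in 5, and in 0 of the 12 did it differ by a ratio of 5 to 4 or more. The largest positive difference was in cycling FAP-like cells, at 18.9% in Ctrl and 21.7% in dKO (log2 ratio 0.20, 0.19 to 0.21, 36 and 38 cells). In the few cells of that class with 5000 to 15000 UMIs, 4 in Ctrl and 3 in dKO, the ratio was -0.14, and under 3 other processing choices the class was not found. Dissociation stress genes held 1.32% and 1.45% of its UMIs, and their part in the difference was not tested. Smooth muscle/pericyte-like cells had 8.74% and 9.38% (0.10), EC-like cells 13.9% and 14.7% (0.09), and B cell-like cells 31.1% and 32.5% (0.07). In smooth muscle/pericyte-like cells the EC list was at 7747 CPM in Ctrl and 4121 in dKO and the MO/MP list at 866 and 415. Stress genes took 3.03% and 2.54% of UMIs there, 3.18% and 2.97% in EC-like cells and 3.62% and 2.15% in B cell-like cells, and the part of these in the differences was not tested. FAP-like cells had 18.4% and 18.8% (0.03), and cycling MO/MP-like cells 18.4% and 18.6% (0.01). The last changed sign under 4 of 12 other processing choices, to -0.22 at the lowest. In that class the MO/MP list was at 12065 CPM in Ctrl and 7077 in dKO. The neutrophil list was at 25558 and 424 CPM and the dendritic cell list at 5088 and 9786. The neutrophil list thus exceeded the MO/MP list in Ctrl, as did the dendritic cell list in dKO. The part of any of these was not tested.

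The largest negative difference was in dendritic cell-like cells, at 24.5% in Ctrl and 21.7% in dKO (log2 ratio -0.17, -0.18 to -0.16, 117 and 104 cells). Dissociation stress genes were also lower there, at 2.01% and 1.72% of UMIs with 14 of 16 genes below 0 (median -0.27, all genes 0.07), and their part in the difference was not tested. T cell-like cells had 31.5% and 29.1% (-0.12), tenocyte-like cells 14.3% and 13.3% (-0.10), and MO/MP-like cells 16.1% and 15.1% (-0.09). In T cell-like cells the Cycling list was at 276 CPM in Ctrl and 594 in dKO, and 10 of 13 stress genes were below 0 (median -0.14). In tenocyte-like cells the FAP list was at 50788 and 62642 CPM, and 13 of 16 stress genes were below 0 (median -0.23). The part of these was not tested. Neutrophil-like cells had 5.64% and 5.55% (-0.02, -0.07 to 0.02), a difference within counting error. Other processing choices put it between -0.29 and 0.29, and the neutrophil list of that class was at 252515 and 147070.3 CPM, whose part was not tested. The median of single cells showed the same order of genotypes in MO/MP-like cells (15.7% in Ctrl, 14.3% in dKO) and in dendritic cell-like cells (23.4% and 21.1%). MO/MP-like cells were also shallower in dKO, with a median of 6817 UMIs against 7769, and held more UMIs of dissociation stress genes (1.53% against 1.21%) and of the dendritic cell list (10115 against 7895 CPM). The part of any of these in the lower ribosomal share was not tested.

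**Figure D2:**
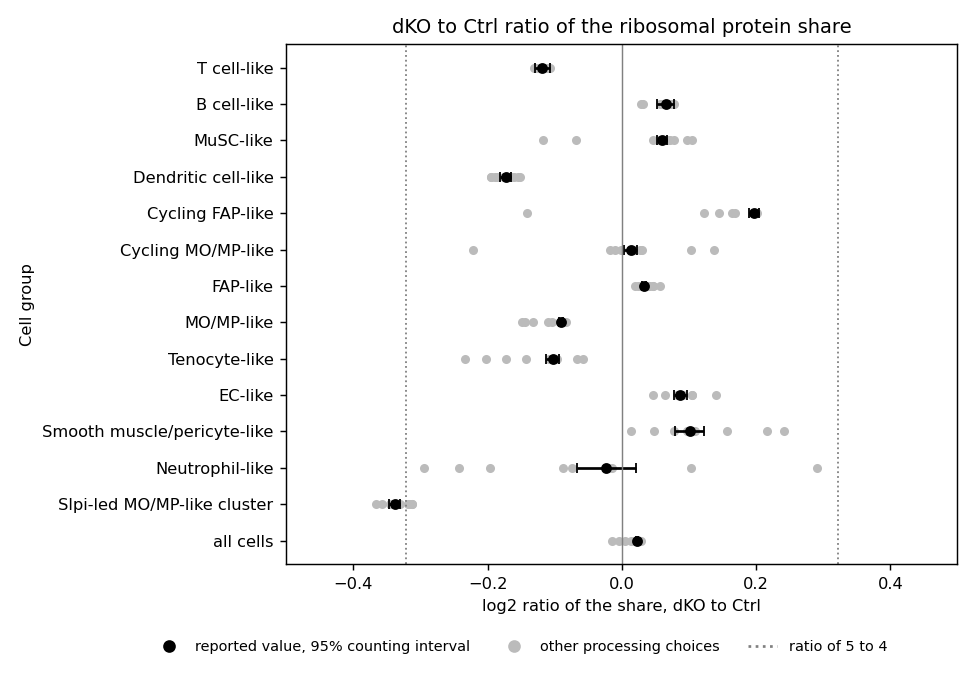
Log2 ratio of the ribosomal protein share, dKO to Ctrl (x axis), for each class, the Slpi-led cluster and all cells (y axis): black points with the exact interval of counting error, grey points for other processing choices, and dotted lines at a ratio of 5 to 4. Of the black points only that of the Slpi-led cluster passes a dotted line, at -0.34, with 4 of its 12 other values inside that line, and cycling FAP-like cells have the highest, 0.20.

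Within the MO/MP-like class the difference was not even. The cluster led by Slpi, Clec4e and Chil3, with Ly6c2 and Il1b also among its leading genes, went from 17.1% of UMIs in Ctrl to 13.5% in dKO (ratio 0.791, log2 -0.34, -0.35 to -0.33; 286 and 244 cells). The cluster led by Fcna, Cd163 and Ccl8, genes of resident macrophages, had 14.0% and 12.1% (-0.22). Its stress genes took 2.29% and 2.86% of UMIs, with 16 of 16 above 0 (median 0.44, all genes 0.01), and their part was not tested. In contrast, the cluster led by Syngr1, Spp1 and Gpnmb had -0.03, that led by Apoe -0.10 and that led by Ear2 0.02. Both of the clusters singled out here were chosen after their values were seen. In the Slpi-led cluster the median cell had 16.6% in Ctrl and 13.2% in dKO, and median depth was 6151.5 and 5663 UMIs. Its nuclear RNA (Malat1, Neat1 and others) was at 1.89% and 2.58% of UMIs, and its stress genes at 1.35% and 1.54%. Both lists were thus higher in dKO, where the ribosomal share was lower. The part of depth or of these lists in the share was not tested. The ratio of the share lay between -0.37 and -0.31 under 12 other processing choices. Under 4 of these it was inside the ratio of 5 to 4, at -0.31 with no doublets removed and with a minimum of 200 genes, and at -0.32 with members among the clustering genes and in cells of 5000 to 15000 UMIs, so that the cluster passes that ratio only under some of the choices.

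For single members, the ratio of CPM in dKO to CPM in Ctrl was computed for every gene with at least 100 UMIs in a class over both libraries, and a gene was counted as past the fold where its level differed by a ratio of 5 to 4 or more, 0.32 on the log2 scale. Over all cells, 0 of the 84 members that reached 100 UMIs were past the fold upward, where 8.45% of all 12557 genes were, and 3 were past it downward, where 14.5% of all genes were. The members' median log2 ratio was 0.03 and that of all genes -0.05. Their quartiles of -0.02 and 0.06 show how closely most members kept together.

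The 3 were Rpl26, Rpl30 and Rpl34. Rpl26, which is also known to bind p53 mRNA, was at 10.4 CPM in Ctrl and 4.90 in dKO (log2 ratio -1.08, -1.36 to -0.81). Rpl30 was at 8.38 and 5.23 CPM (-0.68, -0.96 to -0.40), so that both were at a low level in either library. Rpl34, an abundant enough gene to be measured in nearly all classes, was at 427 and 267 CPM (-0.67, -0.71 to -0.64).

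These differences were present across cell classes. Rpl34 was lower in dKO in all 11 classes where it was tested, from -0.97 in dendritic cell-like to -0.45 in cycling FAP-like cells. Rps3a1, a small subunit protein of the mRNA exit side, was lower in 12 of 12 classes, from -0.57 in dendritic cell-like to -0.01 in cycling FAP-like cells, and was at 3095 CPM in Ctrl and 2527 in dKO over all cells (-0.29, -0.31 to -0.28). Of the 71 members tested in 12 classes, Rps3a1 was the only 1 lower in each of them. Rpl26 and Rpl30 reached 100 UMIs in 2 classes and were lower in both. Rpl34, Rps3a1, Rpl26 and Rpl30 all have near-identical copies elsewhere in the genome (8, 7, 5 and 13). With 1 library each, genotype and library cannot be told apart for these 4 genes.

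Rps2, which lies near the mRNA entry side of the small subunit, had the highest median over classes, 0.14, and was higher in dKO in 8 of 12 classes. It ranged from -0.20 in MO/MP-like to 0.47 in smooth muscle/pericyte-like cells, so its direction depended on the class.

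In FAP-like cells, the cells that expand in fibrotic muscle, members were nearly level between genotypes. Upward 0 of 84 were past the fold (7.84% of all 10254 genes) and downward 3 were (13.2% of all genes). The median of the members was 0.04 and that of all genes -0.06, with 60 members above 0 and 24 below. The lowest were Rpl26 (10.4 CPM in Ctrl and 5.49 in dKO, -0.92), Rpl34 (438 and 267 CPM, -0.71) and Rpl30 (7.87 and 6.14 CPM, -0.36, -0.76 to 0.05). The interval of Rpl30 included 0. The highest were Rpl7l1, a paralog of Rpl7 that acts in ribosome assembly (44.0 and 49.8 CPM, 0.18), Rps2 (4428 and 4785 CPM, 0.11) and Rpl13 (4777 and 5157 CPM, 0.11).

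In MO/MP-like cells most members were slightly lower in dKO. Upward 0 of 83 were past the fold, against 13.4% of all 8710 genes, and downward 5 were, against 10.9%. The median was -0.09 for members and 0.00 for all genes, and 71 of the 83 were below 0. Rpl26 was at 10.6 CPM in Ctrl and 3.36 in dKO (-1.65, -2.28 to -1.07), on 138 and 29 UMIs. Rpl30 (-1.08), Rpl34 (-0.72), Rpl22l1 (-0.66) and Rps3a1 (-0.50) were the other 4. Rpl7l1 (0.13), Rps29 (0.08) and Rpl38 (0.06), the last a protein known for its part in the translation of Hox mRNAs, had the highest values.

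The Slpi-led cluster held the broadest difference. There, 0 of 80 members were past the fold upward, against 21.3% of all 4146 genes, and 42 were past it downward, against 12.2%. In all, 79 of the 80 were below 0. The cluster was singled out after its summed share was seen, so these member counts restate that share and are no independent support. At 1.5-fold 0 were past it upward and 4 downward, against 7.48% and 2.70% of all genes. The median was -0.34 for members and 0.05 for all genes. The lowest were Rpl34 (403 CPM in Ctrl and 215 in dKO, -0.91), Rps3a1 (3016 and 1744 CPM, -0.79) and Rpl32l (46.0 and 27.4 CPM, -0.75, -1.32 to -0.19). Rpsa, a small subunit protein also known as the laminin receptor, was at 2862 and 1865 CPM (-0.62). The member furthest in the other direction was Rpl7l1 (0.21, -0.25 to 0.65), whose interval included 0.

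In the Fcna-led cluster, 0 of 78 members were past the fold upward (19.2% of all 2255 genes) and 16 downward (16%). The median of the members was -0.23 and that of all genes 0.01. This cluster too was singled out after its share was seen, so its counts restate that share. Rpl34 (296 and 188 CPM, -0.66), Rps3a1 (2431 and 1574 CPM, -0.63) and the stalk protein Rplp0 (1486 and 1007 CPM, -0.56) were the lowest.

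In EC-like cells, 2 of 81 members were past the fold upward (13.8% of all 4727 genes) and 1 downward (20%). Rpl7l1 was at 38.8 CPM in Ctrl and 57.4 in dKO (0.56, 0.05 to 1.06) and Rps2 at 2342 and 2989 CPM (0.35). Rpl12, a stalk base protein (0.32, 0.23 to 0.40), lay just inside the fold. Rpl34 was at 352 and 231 CPM (-0.61), Rpl32l was at -0.29 (-0.94 to 0.33) and Rpl36 at -0.24.

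**Figure D3:**
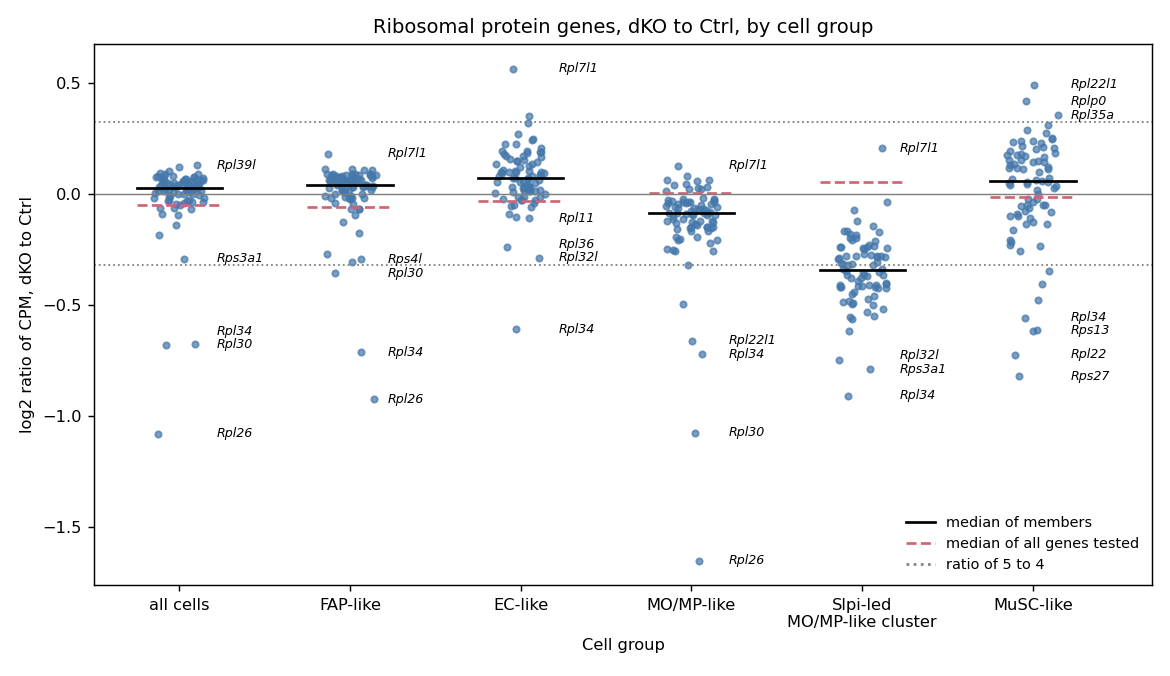
Log2 ratio of CPM, dKO to Ctrl (y axis), of each member with at least 100 UMIs, 1 point a gene, in all cells, 4 classes and the Slpi-led cluster, with solid lines for the median of the members, dashed lines for that of all genes tested and dotted lines at a ratio of 5 to 4. The members of the Slpi-led cluster are shifted below 0 as a body, with a median of -0.34, and in MuSC-like cells they spread from -0.82 to 0.49 around a median of 0.06.

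In MuSC-like cells, the cells in which Yy1 was deleted, the share was 26.3% in Ctrl and 27.4% in dKO (log2 ratio 0.06). Here 3 of 80 members were past the fold upward, against 21.3% of all 3985 genes, and 8 downward, against 25.2%. Both shares of members lay below that of all genes. At 1.5-fold 0 members were past it upward and 4 downward, against 7.45% and 13.4% of all genes. The class held 118 Ctrl and 30 dKO cells, and the direction of the summed share turned with the weight of cells: it was -0.07 as a mean of single cells and -0.12 with each cell thinned to 2000 UMIs.

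Rps27, a small subunit protein with a zinc finger, was the lowest, with 1274 UMIs in Ctrl and 193 in dKO, or 551 and 312 CPM (-0.82, -1.05 to -0.60). The median cell had 535 CPM in Ctrl and 276 in dKO. Rpl22, which binds RNA and represses its paralog, had 3687 and 597 UMIs, or 1595 and 965 CPM (-0.73, -0.85 to -0.60), and the median cell had 1548 and 794 CPM. The upper quartile of dKO cells, 1135 CPM, was below the lower quartile of Ctrl cells, 1223 CPM. Both of these genes were near level over all cells, at 0.01 for Rps27 and -0.09 for Rpl22.

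Rps13, a small subunit protein, was at 2979 and 1944 CPM (-0.62, -0.71 to -0.53), and its quartiles did not overlap either (2322 to 3534 CPM in Ctrl and 906 to 2107 in dKO). Rpl34 (-0.61), Rpl7l1 (-0.56, -1.10 to -0.05), Rps3a1 (-0.48) and Rpl32l (-0.40, -0.96 to 0.11) were also past the fold downward. Rpl7l1 and Rpl32l rest on 38 and 37 UMIs in dKO.

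In the other direction, Rpl22l1, the paralog of Rpl22, was at 1240 CPM in Ctrl and 1742 in dKO (0.49, 0.39 to 0.59), Rplp0 at 5150 and 6872 CPM (0.42, 0.37 to 0.47) and Rpl35a at 2986 and 3815 CPM (0.35, 0.29 to 0.42). The quartiles of the single cells overlapped for Rpl22l1, which were 832 to 1494 CPM in Ctrl and 920 to 1865 in dKO. Its direction was not stable: when each cell was thinned to 2000 UMIs its ratio was -0.21. Under the same thinning Rps27 stood at -1.45 and Rpl22 at -0.96, further below 0 than with all UMIs, and Rplp0 at 0.08, inside the fold.

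Among the members whose promoter window holds the YY1 letters printed above, Rps27, Rpl22 and Rpl7l1 were lower in dKO MuSC-like cells, Rpl35a was higher, and Rpl13a (0.04, -0.03 to 0.11) and Rps15a (-0.06, -0.14 to 0.01) were level within counting error. The median of the 6 was -0.31, which lies between Rps15a and Rpl7l1 and so rests on the 38 dKO UMIs of Rpl7l1, a gene at -0.03 as a mean of single cells. The median of the 55 members with a promoter entry and no match was 0.06, and that of the 203 other genes with a match was -0.20. In FAP-like cells, which Pax7 does not mark, the same medians were 0.04, 0.04 and -0.04, and in MO/MP-like cells -0.06, -0.09 and 0.02. The part of the letters in any of these ratios was not tested, and genotype and library cannot be told apart. Rps13, Rps3a1, Rpl34 and Rplp0 have an entry and hold no match, and the letters say nothing further about them.

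The MuSC-like cells of the 2 libraries also differed in marker levels. UMIs of the Cycling list were at 1165 CPM in Ctrl and 755 in dKO, those of the Myocyte list at 2609 and 4460, those of the MuSC list at 5355 and 4500, and those of the FAP list at 1511 and 593. Of the MuSC list, Myog, a regulator of differentiation, was counted in 34 of the 118 Ctrl and 5 of the 30 dKO cells. A single dKO cell held 418 of the 573 Myog UMIs in that library, and the ratio of Myog was 0.27 with that cell and -1.28 when the top cell of each library was left out. Of the Cycling list, Mki67 had 30 of its 42 dKO UMIs in 1 cell. Its ratio was -0.58, and -2.01 when the top cell of each library was left out. Pax7 itself was at 56.7 and 50.1 CPM, and erythroid genes were at 0.87 and 113 CPM. The part of these differences in the member ratios was not tested.

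In some other classes most members lay on the same side of 0. In dendritic cell-like cells 76 of 80 members were below 0 (median -0.18, all genes 0.07). Rpl34 was at 685 and 350 CPM (-0.97), Rps3a1 at 4257 and 2869 CPM (-0.57) and Rpl22l1 at 441 and 323 CPM (-0.45). Against this shift stood Rps27l, the p53 target, at 363 and 556 CPM (0.61, 0.42 to 0.80). In T cell-like cells 70 of 77 were below 0 (median -0.12, all genes 0.05), with Rpl34 (-0.68), Rpl22l1 (-0.42) and Rps3a1 (-0.39) lowest and Rpl24 (0.07), Rpl4 (0.03) and Rpl7a (0.02) highest. In tenocyte-like cells 68 of 80 were below 0 (median -0.12, all genes 0.01), with Rpl34 (-0.85), Rps3a1 (-0.36) and Rpl37a (-0.32) lowest.

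In cycling FAP-like cells 75 of 81 members were above 0 (median 0.21, all genes -0.01). Rpl4, a protein that lines the peptide exit tunnel, was at 1043 and 1396 CPM (0.42, 0.32 to 0.53), Rps18 at 2741 and 3525 CPM (0.36) and Rpl37 at 1592 and 2033 CPM (0.35). B cell-like cells had 66 of 77 above 0 (median 0.07, all genes 0.04), led by Rps2 (0.33), Rpl6 (0.27) and Rplp0 (0.22). In smooth muscle/pericyte-like cells Rps2 (1994 and 2765 CPM, 0.47), Rpl12 (926 and 1248 CPM, 0.43) and Rpl36al (274 and 363 CPM, 0.41) were highest and Rpl34 (-0.53) lowest. Neutrophil-like cells gave few UMIs: their lowest member, Rpl3, was at 255 and 140 CPM (-0.86, -1.83 to -0.02) on 91 and 13 UMIs, and their highest, Rps29, at 1269 and 1598 CPM (0.33, 0.06 to 0.60).

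The make-up of the ribosomal protein UMIs differed between classes. Each member was taken as a part of the summed member UMIs of a class, over the 71 members with at least 100 UMIs in each class compared. The median member spread by 0.65 on the log2 scale between its highest and lowest class, and Rpl27a by the least, 0.29. The highest and lowest class of a member were set on both libraries summed. In Ctrl alone they were the same for all 10 members described here, whereas in dKO alone another class was lowest for Rps9, Rps27a and Rpsa and another was highest for Rpl12, Rpl14 and Rps29. Rps9, which helps set decoding accuracy, spread most: it was 4.55% of member UMIs in Ctrl and 5.37% in dKO neutrophil-like cells, but 1.5% and 1.47% in cycling FAP-like cells. Rps27a was likewise highest in neutrophil-like cells (3.76% and 3.41%) and lowest in B cell-like cells (1.56% and 1.57%).

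Rpl12 was 1.78% and 1.81% in T cell-like and 0.60% and 0.47% in neutrophil-like cells. Rps2 was 3.24% and 3.26% in cycling FAP-like and 1.12% and 1.07% in neutrophil-like cells. Rps24 was 3.56% and 3.64% in B cell-like cells and 1.74% and 1.71% in MuSC-like cells, and Rpsa was 2.42% and 2.19% in cycling FAP-like and 1.04% and 1.23% in smooth muscle/pericyte-like cells.

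On the summed libraries, MuSC-like cells had the highest part of Rpl3, the protein next to the peptidyl transferase centre (1.17% in Ctrl and 1.16% in dKO, against 0.45% and 0.25% in neutrophil-like cells), of Rpl10a (1.20% and 1.20%, against 0.48% and 0.47%) and of Rpl14 (1.05% and 0.95%, against 0.44% and 0.45%). They had the lowest part of Rps29, at 1.05% and 0.86%, which was high in MO/MP-like cells, at 2.49% and 2.80%, and in neutrophil-like cells, at 2.25% and 2.88%. For all 10 of these members the highest class exceeded the lowest in both libraries. Members and classes were picked on the sum of the libraries, so this is no independent support.

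**Figure D4:**
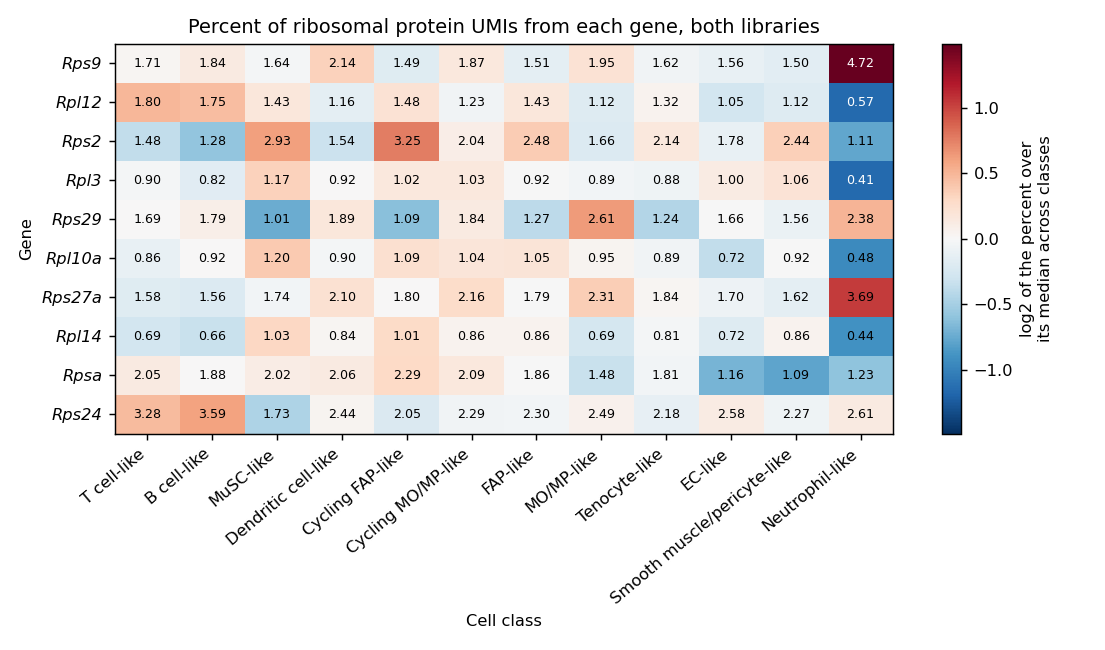
Part of the summed ribosomal protein UMIs (printed in each cell, percent, both libraries summed) taken by the 10 members that spread most between classes, with colour for the log2 difference from the member's median class. Rps9 stands out in neutrophil-like cells at 4.72%, and MuSC-like cells are high in Rpl3, Rpl10a and Rpl14 and low in Rps29.

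The paralogs were followed as a percent of the UMIs of the pair that a paralog forms with its parent. In FAP-like cells Rpl22l1 made up 42.2% of its pair with Rpl22 in Ctrl and 42.9% in dKO. In MuSC-like cells it made up 43.7% (42.5 to 44.9%) and 64.4% (62.0 to 66.7%), whereas in MO/MP-like cells it made up 27.6% (27.0 to 28.2%) and 21.1% (20.3 to 21.9%). The pair therefore differed in opposite directions in these classes, in MuSC-like cells with a lower Rpl22 and in MO/MP-like cells with a lower Rpl22l1 (400 and 253 CPM). It was lowest in dendritic cell-like cells, at 20.7% and 19.4%, and high in smooth muscle/pericyte-like cells, at 48.3% and 57.4%.

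Rps27l made up 61.3% of its pair with Rps27 in Ctrl MuSC-like cells (59.6 to 63.0%) and 76.3% in dKO (73.3 to 79.2%). It held about as many UMIs as its parent in MO/MP-like cells (51.3% and 50.6%), 36.3% and 36.1% in FAP-like cells, and little in lymphocytes, with 6.33% and 9.49% in T cell-like and 4.53% and 7.26% in B cell-like cells. In dendritic cell-like cells it made up 33.0% in Ctrl and 45.4% in dKO, where its own level was higher.

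Rpl36al, a relative of Rpl36a, made up 47.5% and 49.8% of its pair in MO/MP-like, 30.2% and 31.4% in FAP-like, 34.9% and 30.2% in MuSC-like and 57.5% and 57.7% in neutrophil-like cells. The last rests on 77 UMIs of Rpl36al in Ctrl and 15 in dKO. Both Rpl22l1 and Rpl36al have near-identical copies (3 and 2), and Rps27l has none. Of the parents, Rps27 has 5 copies, Rpl36a has 10 and Rpl22 has none. The percents of all 3 pairs are therefore uncertain.

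Rpl39l, the testis-expressed paralog of Rpl39, had most of its UMIs in FAP-like cells, 273 of 329 in Ctrl and 233 of 268 in dKO. As a percent of its pair with Rpl39 it was at similar levels in FAP-like (0.75% and 0.67%), tenocyte-like (0.72% and 0.53%) and cycling FAP-like cells (0.65% and 0.47%). Among FAP-like cells 8.90% had a UMI in Ctrl and 8.96% in dKO, but in 0.42% and 0.62% of MO/MP-like cells. With every cell thinned to 2000 UMIs these shares were 3.38% and 2.74% of FAP-like cells and 0.16% and 0.30% of MO/MP-like cells. Median depth was 11742 UMIs in Ctrl FAP-like and 7769 in Ctrl MO/MP-like cells.

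Rps4l, a relative of the X-linked Rps4x, was highest in cycling FAP-like cells (105 CPM in Ctrl and 92.2 in dKO) and EC-like cells (86.7 and 92.9 CPM) and low in MO/MP-like (12.7 and 11.6 CPM) and MuSC-like cells (10.8 and 8.08 CPM). Rpl7l1 was at 49.0 and 51.6 CPM over all cells. Rpl32l was at 50.7 and 44.6 CPM over all cells. Rpl3l, which takes the place of Rpl3 in adult muscle fibres, had 19 UMIs in Ctrl and 12 in dKO, and none in MuSC-like cells, where an exact interval allowed up to 1.60 CPM in Ctrl and 5.96 in dKO. Rpl10l had no UMI, which allowed up to 0.0904 and 0.121 CPM over all cells.

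**Figure D5:**
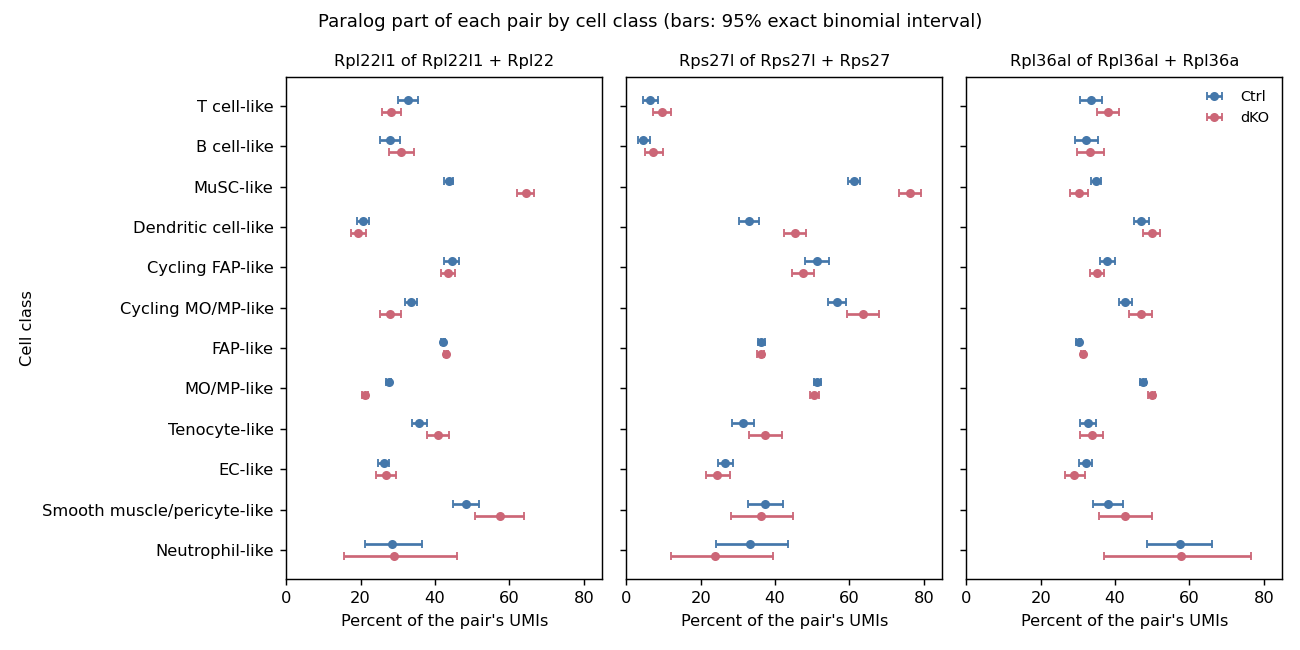
Paralog UMIs as a percent of the paralog and parent together (x axis) in each class (y axis) for Rpl22l1, Rps27l and Rpl36al, Ctrl in blue and dKO in red, with bars for the exact binomial interval of counting error. Rpl22l1 and Rps27l sit higher in dKO than in Ctrl MuSC-like cells, at 64.4% against 43.7% and at 76.3% against 61.3%.

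Genes that work with the ribosomal proteins were taken from lists and compared in the same way. The ribosome biogenesis factors, 40 genes for rRNA transcription, processing and subunit assembly, were mostly higher in dKO FAP-like cells. There 20 of the 40 were past the fold upward, against 7.84% of all genes, and 0 downward, against 13.2%, 39 were above 0, and their median was 0.32. In the same cells they took 0.305% of UMIs in Ctrl and 0.364% in dKO, and 0.431% and 0.647% in cycling FAP-like cells. Polr1a, the largest subunit of RNA polymerase I, was at 8.20 and 13.3 CPM (0.69, 0.36 to 1.03). The assembly factors Ppan (18.6 and 28.9 CPM, 0.63) and Wdr12 (14.5 and 22.2 CPM, 0.62) were next, and Ubtf, which binds the rDNA promoter, was lowest (107 and 91.9 CPM, -0.21). In the same class the EC list was at 559 CPM in Ctrl and 904 in dKO and the FAP list at 55135 and 50809, and the part of these in the difference was not tested.

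The same list varied between the other classes. In MO/MP-like cells it took 0.217% and 0.202% of UMIs, with 3 of 38 genes past the fold upward and 4 downward, against 13.4% and 10.9% of all genes, and in the Slpi-led cluster 0.248% and 0.207%. In EC-like cells 9 of 18 were past the fold upward and 1 downward, against 13.8% and 20% of all genes. In that class the MuSC list was at 430 CPM in Ctrl and 832 in dKO, the smooth muscle/pericyte list at 909 and 554 and the FAP list at 1698 and 2187, and their part was not tested. In MuSC-like cells 14 of 35 were past it upward and 5 downward, against 21.3% and 25.2% of all genes, among them Nmd3, an export factor of the large subunit, at 0.67 (0.01 to 1.29) and Tsr1, which acts in small subunit maturation, at -1.42 (-2.52 to -0.48).

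The translation factors were near level in FAP-like cells, with 1 of 34 past the fold upward, the cap-binding protein Eif4e (90.6 and 137 CPM, 0.60), and 0 downward, where 7.84% and 13.2% of all genes were. In the Slpi-led cluster 10 of 34 were past the fold downward and 0 upward (median -0.24), where 12.2% and 21.3% of all genes were. In MuSC-like cells 7 were past it upward and 4 downward, against 21.3% and 25.2% of all genes, with Eif6, which keeps the subunits apart, at 0.59 and the initiation factor subunit Eif3f at -0.84. The mitochondrial ribosomal proteins, 78 genes that build the separate ribosome of mitochondria, had 1 gene past the fold upward and 2 downward in FAP-like cells, 1 and 4 of 77 in MO/MP-like cells, and 13 and 22 of 71 in MuSC-like cells. The shares of all genes, upward and downward, were 7.84% and 13.2%, 13.4% and 10.9%, and 21.3% and 25.2% in the same order. The subunits Fau and Rack1, which the symbol rule does not reach, were at 0.05 and -0.02 in FAP-like cells, at 0.08 and -0.11 in MO/MP-like cells, and at -0.12 and 0.25 in MuSC-like cells.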

How the data were processed

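Sorted live mononuclear cells of hind limb muscle were run on the 10x Chromium platform, and the authors deposited raw UMI counts per gene and cell, 1 matrix for each genotype, without normalization. The matrix headers name Cell Ranger 3.0.2, whereas the submitters' processing notes name Cell Ranger 7.0.0, Seurat 4.3.0 and mm10. The files hold 0 mitochondrial genes. The number of columns of other samples was 0.

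Cells with at least 500 genes were kept. Doublets were scored with Scrublet (scanpy 1.11.5, Python 3.11.15). Its own threshold called only 4 Ctrl and 14 dKO cells and had not worked, so in each library the top 7.5% of cells by score were taken out (325 and 250). Cells were integrated and clustered in Seurat 5.3.0 (R 4.3.3) on 2000 variable genes without the members, 40 dimensions and a resolution of 0.8. Clusters were named from 17 marker lists (185 genes, of which 5 had no entry), given at least 3 markers that were enriched 2-fold or more.

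UMIs were summed per class and library. Shares have Clopper-Pearson intervals, CPM exact Poisson intervals, and ratios exact conditional intervals for a pair of Poisson counts (scipy 1.17.1), checked on simulated data. All intervals are at 95% and cover counting error only. Pooled mice cannot be separated, so animal variation is not in any interval. A share cannot tell more RNA of the members from less RNA of other genes. Near-identical copies were found with BLAST 2.17.0. Promoter and motif counts are descriptions.

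Members were named as the 10 with most UMIs and the 5 core members with fewest, the 3 highest and 3 lowest ratios in each class, the 10 with the largest spread between classes, all paralogs with their parents, Rpl32l and holders of a motif. From other lists the 3 highest and 3 lowest ratios in FAP-like, MO/MP-like and MuSC-like cells were eligible. Members, lists and rules were chosen with earlier results of these data known. Genes outside these rules, among them Rpl22l1 and Rps3a1 in MO/MP-like cells and those in the 2 singled-out clusters, were named after their values were seen. Alternatives tried were the gene minimum, doublet removal, clustering choices, depth, denominator, scaling, UMI minimum and fold. Some named items that these rules reach are not reported here.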

Additional observations from a re-analysis of the deposited data

Results flagged for a closer look

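The ribosomal protein share was lower in dKO than in Ctrl dendritic cell-like cells (log2 ratio -0.17) and higher in cycling FAP-like cells (0.20). These were the lowest and the highest ratio of the classes compared, which is why both are listed, and they lay in opposite directions. Their counting intervals did not overlap, but these leave out variation between libraries. In cycling FAP-like cells of 5000 to 15000 UMIs, 4 in Ctrl and 3 in dKO, the ratio was -0.14. Whether the classes differ in their response to the genotype was not tested, since there is 1 library of each. The ratio of Rpl22l1 was -0.66 in MO/MP-like and 0.49 in MuSC-like cells, again in opposite directions, and this difference was not tested either. In MuSC-like cells it was -0.21 with each cell thinned to 2000 UMIs, so the opposite directions did not hold under that choice.

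Cells left out for having fewer than 500 genes also carried ribosomal protein UMIs. The share was 12.8% in 192 Ctrl cells (17926 of 140144 UMIs) and 9.66% in 154 dKO cells (11025 of 114181 UMIs). The cells removed as doublets had 18.5% and 18.4%, close to the 17.7% and 18% of the cells kept.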

How the results depend on the processing

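Of 141 ratios of the class share recomputed under an alternative, 132 kept the sign of the reported value and 0 passed a ratio of 5 to 4. Of 66 member ratios 65 kept their sign. The exception was Rpl22l1 in MuSC-like cells, -0.21 with cells thinned to 2000 UMIs, and the cause was not tested. Rpl26, Rpl30, Rpl34 and Rps3a1 were taken over all cells. For them, members among the clustering genes leave the cells the same, so that alternative could not change their ratios. The alternatives without Rpl26, Rpl30, Rpl34 and Rps3a1, without the deepest cell, and all for the Slpi-led cluster were chosen after seeing the data.

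The log2 ratio of the share with the gene minimum at 200 was 0.047 in FAP-like, -0.10 in MO/MP-like, 0.078 in MuSC-like and -0.31 in Slpi-led cells. With no doublets removed it was 0.029 in FAP-like, 0.097 in MuSC-like, 0.019 in all and -0.31 in Slpi-led cells. In FAP-like cells it was 0.037 without integration and 0.047 at resolution 0.4, and in Slpi-led cells -0.32 with members among the clustering genes. As a mean of single cells it was 0.041 in FAP-like, -0.14 in MO/MP-like, -0.069 in MuSC-like, 0.0041 in all and -0.37 in Slpi-led cells. Thinned to 2000 UMIs it was 0.024, -0.15, -0.12, -0.0035 and -0.36 in the same order. In cells of 5000 to 15000 UMIs it was 0.056, -0.13, 0.10, -0.015 and -0.32. With the 20 most abundant other genes out of the denominator it was 0.019 in FAP-like, -0.11 in MO/MP-like, 0.047 in MuSC-like and 0.013 in all cells. Without the 4 genes it was 0.040, -0.084, 0.069, 0.028 and -0.33 in the order above, and without the deepest cell of each library 0.072 in MuSC-like cells.

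The Ctrl share of neutrophil-like cells was 5.75% at the 200-gene minimum, 7.29% with doublets kept, 4.32% as a mean of cells, 4.799% thinned, 6.98% at 5000 to 15000 UMIs, 9.32% with the other denominator, 5.53% without the 4 genes and 5.36% without the deepest cell. That of T cell-like cells was 31.1%, 31.3% and 29.8% with doublets kept, without integration and as a mean of cells, 31.9% thinned, 34.2% at 5000 to 15000 UMIs, 37.1% with the other denominator, 31.4% for the core genes only and 30.9% without the 4 genes.

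Without the 4 genes, members past the fold downward numbered 0 in FAP-like, 1 in MO/MP-like and 0 in all cells. At 1.5-fold 4 were down and 0 up in MuSC-like cells (13.4% and 7.45% of all genes), and 4 were down in the Slpi-led cluster (2.70%). The share in cycling FAP-like cells at 5000 to 15000 UMIs, -0.14, rests on 4 Ctrl and 3 dKO cells, and the class was not found at resolution 0.4, without integration or at the 200-gene minimum. No paired analysis was possible because each genotype has 1 library.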
